A study of Rattus norvegicus with 8 samples.

Results

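The genes of chromatin regulators and transcription cofactors were followed in rat retinal ganglion cells (RGCs), the neurons whose axons form the optic nerve, shortly before and after birth. Members were chosen by symbol, as genes whose names mark histone deacetylases, methyltransferases, demethylases, PHD finger proteins, SNF2 remodellers, Mediator subunits and the coactivator complexes SAGA, ATAC and TFIID. This choice was made with earlier results of these data known. Of the 1998 named genes used here, out of 32623 gene IDs counted, 26 were members, and all 26 had enough reads to be tested. RNA was sequenced from 4 libraries at embryonic day 21 (E21), when axon growth capacity is high, and 4 at postnatal day 11 (P11), when it is low, each from an independent litter of Sprague Dawley rats. In both stages retinas were digested with papain, of which more units were used at P11 than at E21. RGCs were then purified by immunopanning, which removes macrophages on coated dishes and then holds cells that carry Thy1 at their surface. Neither group carried a genetic change or a treatment. Each library therefore reports a pool of litter mates, and in such bulk RNA fewer cells of a type and less RNA per cell cannot be told apart.

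Chromatin regulators act on DNA wrapped around histones. Methyltransferases, acetyltransferases and their opposing erasers change marks on histone tails, PHD fingers often read such marks, and remodellers slide or eject nucleosomes. Cofactors such as Mediator and SAGA do not bind specific sites by themselves but link transcription factors to RNA polymerase II. Subunits with related paralogs can replace each other in such complexes, so that their make-up can differ between cell types and stages.

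Of the 26 members, 15 stood higher at E21, 4 stood higher at P11 and 7 passed in neither direction, at an adjusted p below 0.01 (edgeR's quasi-likelihood test, adjusted after Benjamini and Hochberg over 14043 genes). Among all genes tested the same test called 33.8% higher at E21 and 34.6% higher at P11, or 68.4% in all, against 57.7%, 15.4% and 73.1% of the members. The share of members called at all was thus near the background, while the calls were split less evenly between the stages. The median log2 fold change, E21 over P11, was 0.21 over the members and 0.0042 over all genes tested, and the median size without sign was 0.39 against 0.49. In 15 members every E21 library lay above every P11 library, in 3 the order was the opposite and in 8 the stages overlapped, where 35.4% and 35.9% of all genes tested were apart in these directions, 71.3% in all. Only H3f3b, 1 of 26 or 3.85%, also exceeded a 2-fold change, whereas 24.7% of all genes tested were past both thresholds, 8.16% higher at E21 and 16.5% higher at P11. Most members that moved therefore did so by less than 2-fold.

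**Figure D1:**
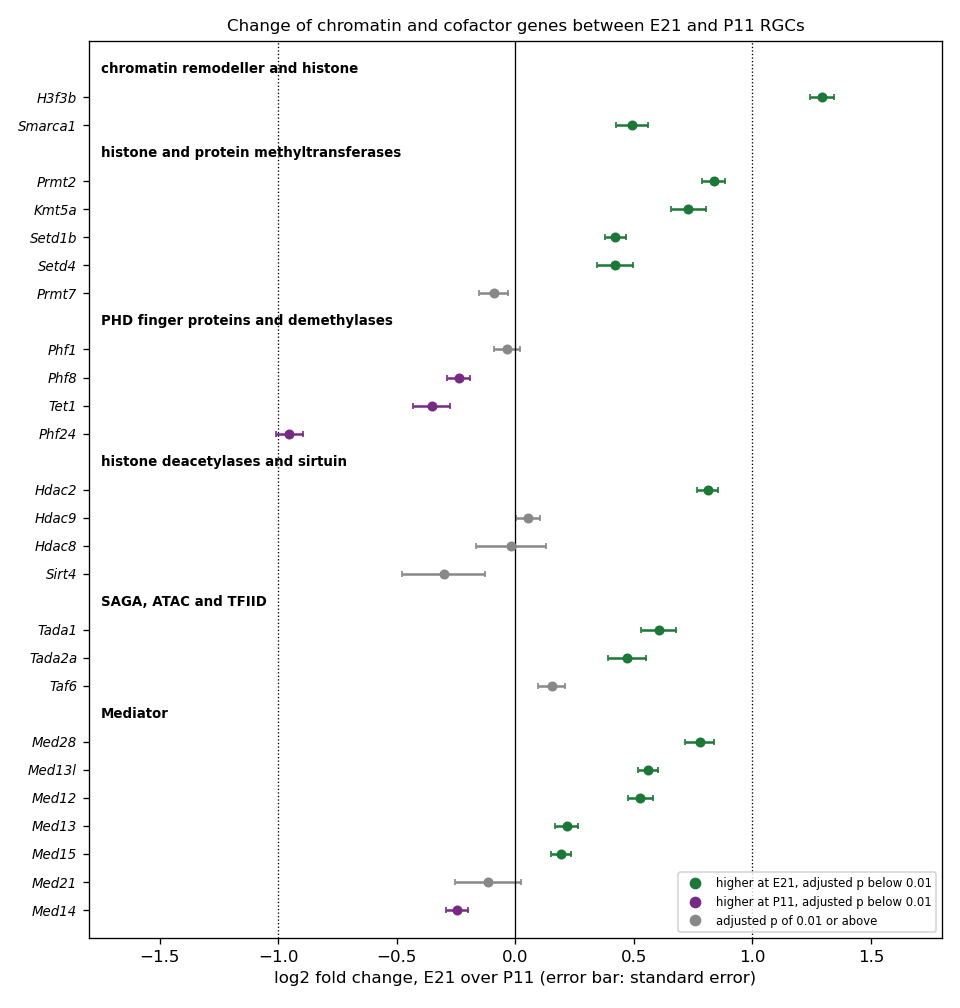
Log2 fold change of the member genes reported by name, E21 over P11, with points for the estimate and bars for 1 standard error, grouped by the role of the protein and coloured by whether the gene passed at an adjusted p below 0.01. H3f3b at 1.29 lies beyond the 2-fold line, Phf24 at -0.95 lies just short of it, and every other gene lies between -0.35 and 0.84.

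The promoters of the members with the largest change in each direction are printed to show how unlike these genes are at their start sites. The sequences come from RefSeq on build GRCr8, a later build than the Rnor_6.0 to which the reads were aligned, and run from 250 bases before the start site to 50 after it, 5′ to 3′ on the gene's strand. H3f3b lies at chr10:101757587-101757886 on the minus strand and Phf24 at chr5:61939666-61939965 on the plus strand. Capitals mark the CCAAT box bound by NF-Y, the octamer ATGCAAAT bound by POU factors, the half-site of CREB and ATF factors with the letters TGACG, the TATA box searched as TATAAA, and the GC box of Sp and KLF factors, GGGCGG. Each was searched on both strands, and a GC box of the opposite strand reads CCGCCC. Distances are given to the first base as printed.
H3f3b: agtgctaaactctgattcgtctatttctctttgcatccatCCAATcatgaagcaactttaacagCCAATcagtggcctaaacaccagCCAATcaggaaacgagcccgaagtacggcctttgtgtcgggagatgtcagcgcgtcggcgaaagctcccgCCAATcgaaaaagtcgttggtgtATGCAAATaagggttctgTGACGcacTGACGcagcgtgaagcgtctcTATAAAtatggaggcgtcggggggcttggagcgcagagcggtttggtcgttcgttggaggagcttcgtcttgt
Phf24: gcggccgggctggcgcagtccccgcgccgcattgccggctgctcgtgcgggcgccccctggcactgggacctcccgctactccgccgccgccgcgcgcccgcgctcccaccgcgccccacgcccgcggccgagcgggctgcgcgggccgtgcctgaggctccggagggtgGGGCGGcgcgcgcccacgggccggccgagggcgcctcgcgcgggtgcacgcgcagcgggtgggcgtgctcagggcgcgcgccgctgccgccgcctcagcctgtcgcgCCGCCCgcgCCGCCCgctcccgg
The H3f3b window held 4 CCAAT boxes, at 210, 186, 163 and 93 bases before the start, an octamer at 70, TGACG at 52 and 44, and TATAAA at 23, with no overlap between them. In the Phf24 window none of those motifs occurred, and GGGCGG was found 80 bases before the start and 27 and 36 bases after it. GC content was 51.7% for H3f3b and 85.3% for Phf24, against a mean of 52.7% over all promoters of this length.

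RefSeq windows were found for 24 of the 26 members. TGACG was present in 9 of the 24 (37.5%) and in 21.2% of all 33469 promoters, and none of the 24 held the full site TGACGTCA, which 1.83% of all promoters did. CCAAT was present in 11 members (45.8%) and in 37.5% of all promoters. GGGCGG was present in 19 members (79.2%) and in 33.1% of all promoters. TATAAA was found only in H3f3b and Tet1 among the members, and in 14.2% of all promoters, and the octamer only in H3f3b, and in 1.78%. The YY1-type sequence AAGATGGC was found in Med12, Taf6 and Tet1, and in 3.17% of all promoters. Of the 13 members higher at E21 with a window, 11 held GGGCGG, 7 held CCAAT and 5 held TGACG. The half-site lies within TGACGTCA, and the motifs were picked after expression values were known, so these matches describe letters in the windows and no more.

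The histone gene H3f3b had the largest change of all members. H3f3b (ENSRNOG00000003220) encodes the H3.3 variant, which is laid down outside of DNA replication and is the main supply of new histone H3 in neurons. Its level was 397, 407, 435 and 386 CPM (counts per 1000000 counted reads) in the 4 E21 libraries and 173, 153, 162 and 175 CPM in the 4 P11 libraries. All E21 libraries were far above all P11 libraries, with means of 406 ± 21.1 and 166 ± 10.2 CPM (SD, n = 4 each). The log2 fold change was 1.29 (SE 0.05, adjusted p = 4.95e-13 by edgeR), or 2.45-fold higher at E21, and was 1.24 to 1.32 when any 1 library was left out. Reads that match several places were set aside by the authors' counting, and H3f3b has close copies in the genome, so reads that belong to it may be missing from its counts. Such reads made up 37.4% to 42.2% of the alignments at E21 and 31.7% to 36.3% at P11, without overlap, and their part in this result was not tested.

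Smarca1 (ENSRNOG00000003762) encodes the ISWI-type remodelling ATPase SNF2L, which spaces nucleosomes. It was measured at 40.9, 41.5, 40.5 and 41.7 CPM in E21 RGCs and at 30.8, 25.6, 28.2 and 32.3 CPM in P11 RGCs. The stages did not overlap and the E21 libraries were tightly grouped. It was higher at E21 by 0.49 on the log2 scale (SE 0.07, adjusted p = 4.21e-06 by edgeR).

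**Figure D2:**
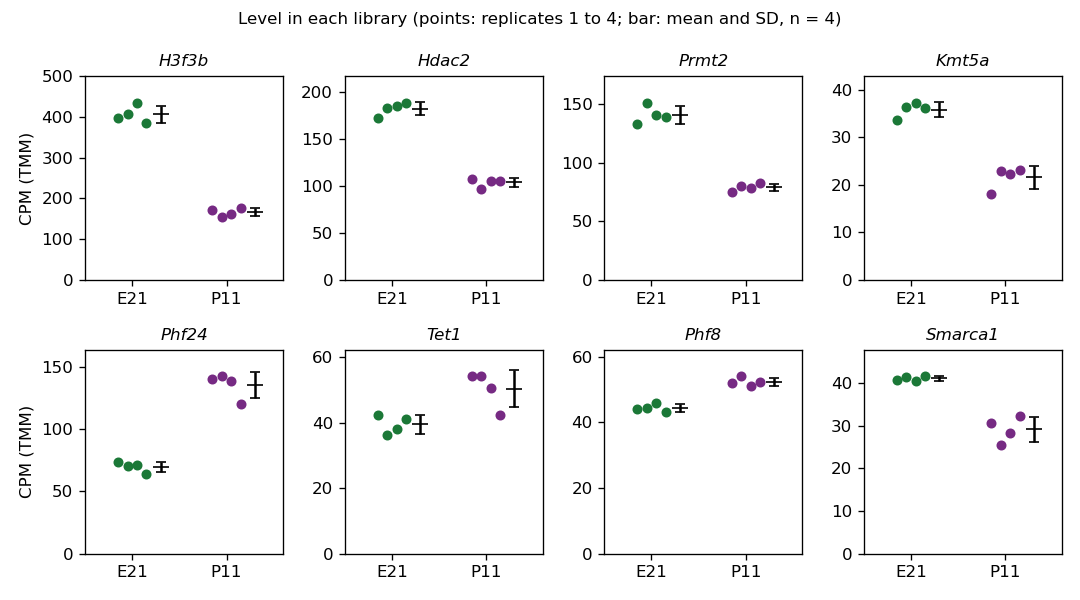
Levels of selected member genes in CPM, with 1 point for each of the 4 libraries of E21 RGCs and of P11 RGCs and a bar for the mean and SD of each stage (n = 4). H3f3b, Hdac2, Prmt2, Kmt5a and Smarca1 separate with E21 above, Phf24 and Phf8 with P11 above, and the lowest P11 library of Tet1 meets the highest E21 library at 42.2 CPM.

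Of the 5 methyltransferase genes among the members, 4 were higher at E21, none was higher at P11 and 1 did not pass. Of 6 other methyltransferase and demethylase genes outside the naming rule, 2 were higher at E21, 1, Prdm8, at P11 and 3 did not pass. The same test called 33.8% of all genes tested higher at E21 and 34.6% higher at P11. Prmt2 (ENSRNOG00000001297), an arginine methyltransferase that also acts as a coactivator of nuclear receptors, stood at 133, 151, 141 and 139 CPM at E21 and at 74.6, 80.2, 78.4 and 82.4 CPM at P11. The stages were well apart, and Prmt2 was 1.79-fold higher at E21 (adjusted p = 7.56e-11 by edgeR). Prmt7 (ENSRNOG00000000258), which adds single methyl groups to arginine, did not share this: its means were 34.2 ± 0.973 CPM at E21 and 36.4 ± 2.38 CPM at P11 (SD, n = 4 each), with overlapping libraries and a log2 fold change of -0.09 (SE 0.06, adjusted p = 0.171 by edgeR). The difference between the genes was described by the log2 ratio of Prmt2 to Prmt7 within each library. The ratio was 2.04 ± 0.05 at E21 and 1.12 ± 0.12 at P11 (SD, n = 4 each), a shift of 0.93 (exact permutation test, two-sided, p = 0.0286, adjusted over 7 pairs p = 0.0333). With 4 libraries a stage, 0.0286 is the smallest p this test can give. This pair and the others below were chosen with earlier results of these data known. A small p for a pair is therefore not independent support for its shift.

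Kmt5a (ENSRNOG00000001062) encodes the enzyme, also called SET8, that puts single methyl groups on a lysine of histone H4. Its level was 33.6, 36.2, 37.3 and 36.1 CPM at E21 and 18.1, 23.0, 22.2 and 23.0 CPM at P11. The lowest E21 library was well above the highest P11 library, and the change was 1.66-fold (log2 0.73, SE 0.07, adjusted p = 1.28e-07 by edgeR). Setd1b (ENSRNOG00000001337) belongs to the COMPASS family that methylates histone H3 at active promoters. It ranged from 137 to 157 CPM at E21 and from 110.1 to 113 CPM at P11, so that the P11 libraries were almost alike and all lay below E21 (log2 0.42, SE 0.05, adjusted p = 2.37e-07 by edgeR). Setd4 (ENSRNOG00000001699), another SET domain methyltransferase, ranged from 20.9 to 23.3 CPM and from 15.2 to 18.1 CPM, and was higher at E21 by the same 0.42 (SE 0.08, adjusted p = 1.10e-04 by edgeR).

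Of the 4 PHD finger and demethylase genes among the members, 3 were higher at P11, none was higher at E21 and 1 did not pass. Over all genes tested, 34.6% were called higher at P11 and 33.8% higher at E21, and the group is too small to speak for its families. Outside the naming rule, Mtf2, related to Phf1, was higher at E21 (log2 1.03). So was Jmjd6 (log2 1.26), 1 of 2 such genes among 6 other methyltransferases and demethylases. Of those 6, 1 was higher at P11 and 3 did not pass. Phf24 (ENSRNOG00000000129) was at 73.2, 70.7, 70.8 and 64.1 CPM at E21 and at 139.9, 143, 139 and 119.9 CPM at P11. Every P11 library was far above every E21 library. The log2 fold change was -0.95 (SE 0.06, adjusted p = 1.69e-10 by edgeR), or 1.94-fold higher at P11. Although it has a PHD finger, the Phf24 protein is also known as GINIP, a neuronal protein that binds inhibitory G protein alpha subunits, so this member's known role is in receptor signalling rather than chromatin.

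Phf8 (ENSRNOG00000002708), which removes methyl groups from histones H3 and H4, was at 44.2, 44.3, 46.0 and 43.0 CPM at E21 and at 52.0, 54.0, 51.2 and 52.4 CPM at P11. The shift was small but clear of the spread, 1.18-fold higher at P11 (log2 -0.24, SE 0.05, adjusted p = 2.60e-04 by edgeR). Since Kmt5a adds and Phf8 can remove methyl groups at histone H4, their ratio was taken in each library. The log2 ratio of Kmt5a to Phf8 was -0.31 ± 0.06 at E21 and -1.29 ± 0.16 at P11 (SD, n = 4 each). It shifted by 0.98 between the stages, the widest shift of the 7 pairs examined (exact permutation test, two-sided, p = 0.0286, adjusted p = 0.0333).

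Tet1 (ENSRNOG00000000277), which oxidises methylated cytosine in DNA, gave 42.2, 36.1, 38.1 and 41.2 CPM at E21 and 54.2, 54.1, 50.7 and 42.2 CPM at P11. It passed the test as higher at P11, yet P11 replicate 4 was level with E21 replicate 1 and the stages were not apart. When 1 library at a time was left out, its log2 fold change stayed between -0.44 and -0.32. Phf1 (ENSRNOG00000000480), a Polycomb-associated protein that reads a methyl mark of histone H3, had overlapping libraries and means of 56.5 ± 3.62 CPM at E21 and 57.9 ± 2.35 CPM at P11 (SD, n = 4 each, log2 -0.04, adjusted p = 0.562 by edgeR).

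Only 4 deacetylase and sirtuin genes had a name in the rows used. Of these 4, 1 was higher at E21, none was higher at P11 and 3 did not pass. Other genes of these families were not read, so the counts do not speak for the families. The paper describes genes of epigenetic regulation as without major changes, apart from a few. Its calls of change also needed a log2 fold change above 1, which the counts here did not. Among the exceptions it names are HDAC10, upregulated, and HDAC11, downregulated, at the embryonic stage. Neither gene had a name in the rows used. Hdac2 (ENSRNOG00000000604), a class I deacetylase of several nuclear corepressor complexes, was at 172, 184, 185 and 189 CPM at E21 and at 108, 97.3, 105 and 106 CPM at P11. All E21 libraries were well above P11, by 1.75-fold (adjusted p = 4.35e-11 by edgeR). Hdac8 (ENSRNOG00000003122), a class I deacetylase that acts on cohesin, ranged from 4.49 to 5.42 CPM at E21 and from 3.999 to 5.78 CPM at P11, and did not pass (adjusted p = 0.908 by edgeR). The log2 ratio of Hdac2 to Hdac8 was 5.19 ± 0.10 at E21 and 4.37 ± 0.26 at P11 (SD, n = 4 each), a shift of 0.82 (exact permutation test, two-sided, p = 0.0286, adjusted p = 0.0333). Without E21 replicate 3 the shift was 0.79 and the adjusted p, then over splits of 3 against 4 libraries, was 0.0667. The stages still did not overlap in this ratio, at 5.08 to 5.25 at E21 and 4.15 to 4.71 at P11.

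Hdac9 (ENSRNOG00000004158), a class IIa deacetylase that represses MEF2 targets, overlapped between stages at 67.8 to 77.4 CPM and 68.4 to 71.1 CPM (log2 0.05, SE 0.05, adjusted p = 0.332 by edgeR). Sirt4 (ENSRNOG00000001151), which works in mitochondria rather than on chromatin, was low, with 36 to 70 reads a library, and gave 2.41 to 3.10 CPM at E21 and 3.05 to 4.44 CPM at P11. At that depth a log2 difference of -0.30 with an SE of 0.18 was not separable from the spread (adjusted p = 0.129 by edgeR).

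Mediator has a head, middle and tail built on a scaffold, and a kinase module that can attach to it and block or tune its contact with polymerase. Of 7 Mediator members, 5 stood higher at E21, 1 at P11 and 1 did not pass, where 33.8% and 34.6% of all genes tested were called in these directions. The 3 genes of the kinase module that were members, Med12, Med13 and Med13l, were all higher at E21. Mediator genes without a name in the rows used here were not read, so neither the module nor the core was covered in full. Med12 (ENSRNOG00000003848), which activates the kinase, was at 76.6, 79.7, 76.4 and 84.6 CPM at E21 and at 52.7, 55.8, 52.2 and 59.3 CPM at P11, without overlap (1.44-fold, adjusted p = 1.05e-07 by edgeR).

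Med13 and Med13l are related subunits of which 1 at a time joins the kinase module to Mediator. Med13l (ENSRNOG00000001120) was at 164, 149, 148 and 154 CPM at E21 and at 105, 101, 105 and 106 CPM at P11, 1.48-fold higher at E21 (adjusted p = 2.85e-09 by edgeR). Med13 (ENSRNOG00000003679) was at 127, 112, 111 and 113 CPM at E21 and at 104, 96.9, 99.8 and 98.3 CPM at P11, higher at E21 by 0.22 on the log2 scale (adjusted p = 7.15e-04 by edgeR). Both were separated by stage, but Med13l by more. The log2 ratio of Med13 to Med13l was -0.41 ± 0.03 at E21 and -0.06 ± 0.04 at P11 (SD, n = 4 each), a shift of -0.35 (exact permutation test, two-sided, p = 0.0286, adjusted p = 0.0333).

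Cdk19 (ENSRNOG00000000583), a kinase of the same module that the naming rule does not reach, was at 100.4, 101, 99.7 and 96.8 CPM at E21 and at 54.2, 55.6, 53.0 and 53.7 CPM at P11. It was higher at E21 by 0.88 on the log2 scale (SE 0.04, adjusted p = 7.01e-12 by edgeR), with narrow groups that were wide apart.

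**Figure D3:**
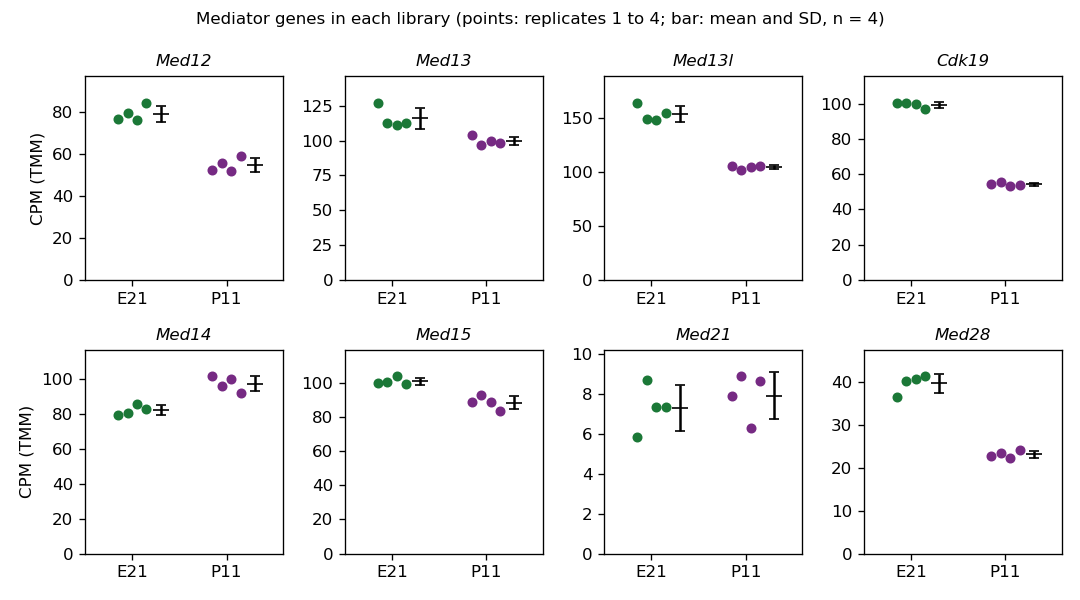
Levels of the 7 Mediator members and of the kinase gene Cdk19 in CPM, with 1 point for each of the 4 libraries of E21 RGCs and of P11 RGCs and a bar for the mean and SD of each stage (n = 4). Med12, Med13, Med13l, Cdk19, Med15 and Med28 separate with E21 above, Med14 separates with P11 above, and Med21 overlaps.

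The core subunits among the members did not move as 1 block. Med14 (ENSRNOG00000003792), the scaffold that joins head, middle and tail, was at 79.1, 80.5, 85.5 and 82.6 CPM at E21 and at 101, 95.8, 99.9 and 91.6 CPM at P11. It was the 1 Mediator member higher at P11, without overlap (1.19-fold, adjusted p = 1.27e-04 by edgeR). The log2 ratio of Med12 to Med14 was -0.05 ± 0.08 at E21 and -0.82 ± 0.15 at P11 (SD, n = 4 each, exact permutation test, two-sided, p = 0.0286, adjusted p = 0.0333).

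Med28 (ENSRNOG00000003592), a head subunit, was at 36.4, 40.2, 40.6 and 41.2 CPM at E21 and at 22.8, 23.4, 22.2 and 24.0 CPM at P11. With a 1.71-fold difference it had the largest change of the 7 (log2 0.78, SE 0.06, adjusted p = 3.97e-09 by edgeR). Med15 (ENSRNOG00000001877), a tail subunit that many activators bind, was at 99.3 to 104 CPM at E21 and 83.5 to 92.7 CPM at P11, 1.14-fold higher at E21 (adjusted p = 7.27e-04 by edgeR). Med21 (ENSRNOG00000001820), a small subunit of the middle, overlapped at 5.82 to 8.67 CPM and 6.28 to 8.88 CPM and did not pass (log2 -0.11, SE 0.14, adjusted p = 0.470 by edgeR).

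Of the SAGA, ATAC and TFIID members, 2 of 3 were higher at E21, none was higher at P11 and 1 did not pass. Among all genes tested, 33.8% and 34.6% were called in these directions. Tada1 (ENSRNOG00000003816), a subunit of SAGA, ranged from 22.2 to 24.5 CPM at E21 and from 14.2 to 17.0 CPM at P11 (log2 0.60, SE 0.07, adjusted p = 9.94e-07 by edgeR). Tada2a (ENSRNOG00000002757), the adaptor of the related acetyltransferase complex ATAC, ranged from 18.2 to 22.0 CPM and from 13.1 to 15.1 CPM (log2 0.47, SE 0.08, adjusted p = 5.31e-05 by edgeR). These changes were not shown to differ, as the log2 ratio of Tada1 to Tada2a was 0.24 ± 0.08 at E21 and 0.10 ± 0.08 at P11 (SD, n = 4 each, exact permutation test, two-sided, p = 0.0571, adjusted p = 0.0571). Taf6 (ENSRNOG00000001355), a subunit of TFIID with a histone-like fold, overlapped at 62.3 to 76.1 CPM and 59.8 to 65.4 CPM (log2 0.15, adjusted p = 0.0245 by edgeR). Without E21 replicate 1 it passed, at 0.20 and an adjusted p of 0.00331.

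**Figure D4:**
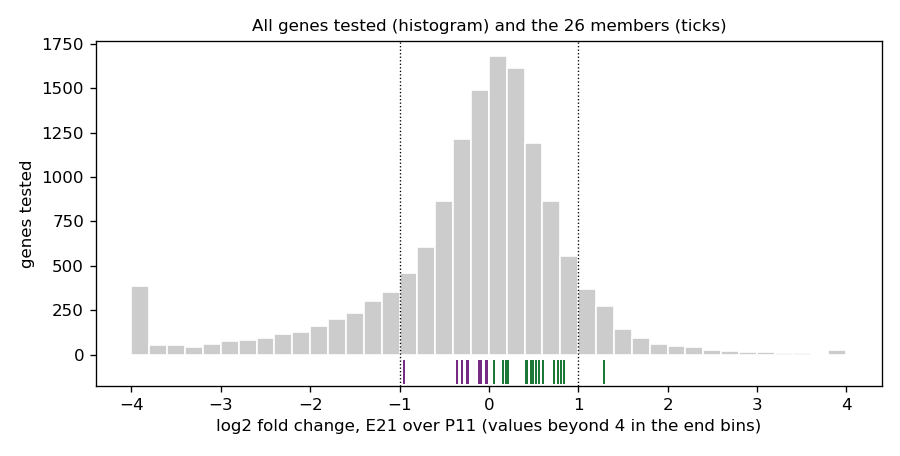
Distribution of the log2 fold change, E21 over P11, over the 14043 genes tested, with ticks for the 26 members, green above 0 and purple below it. The end bins hold all values beyond 4 in size. The members lie between -0.95 and 1.29 around a median of 0.21, inside a distribution with a median of 0.0042.

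Other genes of chromatin and transcription machinery that the naming rule does not reach were read in the same fit from a list of 53. That list, too, was set with earlier results of these data known. Of these, 28 stood higher at E21 (52.8%), 7 at P11 (13.2%) and 18 did not pass, and their median log2 fold change was 0.30. In all, 66.0% were called, near the 68.4% of all genes tested. Past both thresholds were 4 higher at E21 and 1 higher at P11, or 9.43% of the list against 24.7% of all genes tested. Of 6 Polycomb genes, 4 were higher at E21 and 2 did not pass. For this group and those below, 33.8% of all genes tested were called higher at E21 and 34.6% higher at P11. Rnf2 (ENSRNOG00000002454), the ubiquitin ligase of Polycomb repressive complexes, was at 105, 107, 113 and 115 CPM at E21 and at 49.3, 47.5, 50.2 and 51.1 CPM at P11, and was 2.22-fold higher at E21 (adjusted p = 9.45e-13 by edgeR). Its paralog Ring1 (ENSRNOG00000000467) overlapped between stages (log2 -0.07, SE 0.06, adjusted p = 0.296 by edgeR). Mtf2 (ENSRNOG00000000075), a Polycomb-like protein related to the member Phf1, was higher at E21 by 1.03 on the log2 scale (SE 0.07), and Scml2 (ENSRNOG00000003726), with only 15 reads in its lowest library, by 1.41 (SE 0.23). Both rest on the 2-fold line or on few reads: without P11 replicate 2, Mtf2 was at 0.999.

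Among other writers and erasers, Jmjd6 (ENSRNOG00000000250), an oxygenase of the Jumonji family, was higher at E21 at 49.9 ± 2.22 against 20.9 ± 2.22 CPM (SD, n = 4 each, log2 1.26, adjusted p = 5.37e-11 by edgeR). The strongest change of the list was in Prdm8 (ENSRNOG00000002004), a transcriptional repressor of the PRDM family with roles in neuronal circuits. It was at 9.04, 10.2, 10.9 and 8.48 CPM at E21 and at 49.1, 42.8, 48.0 and 35.8 CPM at P11, 4.49-fold higher at P11 (adjusted p = 2.16e-10 by edgeR). By group, the counts higher at E21, higher at P11 and not passing were 8, 1 and 1 for histone chaperones and remodelling complexes, where Hltf (0.70) and Asf1a (-0.47) had the largest log2 fold changes in each direction among the genes that passed. The genes named for the next groups are also the largest of those that passed. They were 4, 2 and 3 for corepressor complexes, with Zmym3 (0.37) and Sap30l (-0.25), and 2, 1 and 2 for acetyltransferases and coactivators, with Maml1 (0.74) and Hat1 (-0.57). For cohesin they were 2, 1 and 2, with Rad21 (0.59) and Pds5b (-0.63), and for general transcription and pausing 5, 1 and 3, with Cdk19 and Hexim1 (-0.25). Other methyltransferases and demethylases gave 2, 1 and 3, and other bromodomain proteins 1, 0 and 2, with Brwd1 at 0.31.

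The libraries held 13899299 to 20116017 counted reads at E21 and 14780002 to 17756824 at P11. The members had between 36 and 10080 reads in a library. Markers of other cells also moved with stage. The 7 vascular and mural genes summed to 5.22 to 7.75 CPM at E21 and 420 to 813 CPM at P11, and all 6 of them that were tested were higher at P11, most of all Rgs5 (log2 -7.38). Their sum was highest in P11 replicate 4. Among the P11 libraries that one was the lowest for 6 of the 26 members, Phf24, Tet1 and Med14 among them, and the highest for 9, H3f3b, Prmt2, Med12 and Med28 among them, while the other P11 libraries were the lowest for 4 to 9 and the highest for 4 to 8. The 6 photoreceptor genes summed to 6.99 to 8.50 and 29.9 to 49.4 CPM, and 5 were higher at P11, led by Pde6b (-5.69). Sums of 4 bipolar genes were 41.4 to 49.0 and 87.3 to 94.5 CPM (Prkca -1.19, Grm6 0.82), of 2 amacrine genes 6.29 to 7.30 and 13.3 to 20.97 CPM (Gad1 -4.03, Prox1 1.18), and of 3 astrocyte and Müller genes 0.870 to 1.24 and 10.2 to 17.9 CPM (Hes1 -5.78). Hes1 alone carried the last of these sums, since Gfap was at or below 3 counts in every library and Sox9, too low to test, averaged 0.623 ± 0.115 CPM before birth (E21) and 0.354 ± 0.0917 CPM after it (P11; SD, n = 4 each). Most of the bipolar sums came from Prkca, with means of 38.3 CPM at E21 and 87.5 CPM at P11, while Lhx4 and Pcp2 were too low to test. The 3 microglial genes stayed below 0.953 CPM in sum and were too low to test. The 9 genes of dividing progenitors summed to 90.8 to 98.7 and 64.7 to 92.3 CPM, with 2 higher at E21 and 4 at P11 (Mcm7 1.02, Cdk1 -2.98). Of 9 RGC markers only Gap43, a growth cone gene, had a name here (log2 1.46), so the label of the cells was not checked by pan-RGC genes. The part of these cells in the members' changes was not tested.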

How the data were processed

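Per the labels and the study's methods, the authors depleted ribosomal RNA, sequenced all 8 libraries in 1 lane, used cutadapt 1.16 for trimming, PRINSEQ for read filtering, STAR 2.5.3a for alignment against Rnor_6.0 and HTSeq 0.6.1 for counting. They deposited raw counts per Ensembl gene ID, without normalization or pooling. The annotation release and strand setting of the counting are not given in the sources used here, so overlapping and antisense genes may share reads. Rows of reads that were not assigned to a gene were left out of library sizes.

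Symbols came from the study's gene table, of which 1998 rows were used. Members, lists, pairs and motifs were chosen with earlier results of these data known. Genes were filtered with filterByExpr, scaled by TMM and tested with edgeR 4.0.16 (quasi-likelihood, robust, R 4.3.3) with Benjamini-Hochberg adjustment over 14043 genes. The threshold was an adjusted p of 0.01, and genes past both thresholds also had a log2 fold change beyond 1. Levels are CPM on TMM-scaled library sizes, without correction for gene length, so they are compared between stages and not between genes. Standard errors come from the test's F. Ratios of pairs add 0.5 to each count and were compared with exact permutation tests in scipy 1.17.1. The floor was 3 counts, which is 0.149 to 0.216 CPM before scaling and covers counting error only. The fits were first tested on simulated counts. The values of 1 member and of its pair are not reported here, though it is in the counts over all members. The other members are named, as are, of the other genes listed, those past both thresholds and, per group, the largest rise and the largest fall at an adjusted p below 0.01. Ring1, as paralog of Rnf2, was chosen after its values were seen.

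Alternatives were DESeq2 1.42.0, other scalings and filters, glmTreat against the 2-fold threshold, a replicate block and each library left out. Promoters matched by symbol are from RefSeq.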

Additional observations from a re-analysis of the deposited data

Results flagged for a closer look

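Med13 in E21 replicate 1 stood apart from the other E21 libraries, at 127 CPM against 111 to 113 CPM, with a gap to the nearest library of 0.902 of the range. This was the 1 such case in 52 groups of 4 libraries, where chance alone gives about 1 in 20. Without that library Med13 was still higher at E21, at 0.18 on the log2 scale.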

How the results depend on the processing

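Under DESeq2, other scalings and filters, and each library left out, the 19 members that passed at an adjusted p below 0.01 all passed in the same direction. With library size scaling, with upper-quartile scaling and without P11 replicate 4, Phf24 joined H3f3b and 2 members were past both thresholds, and leaving out a library gave 1 to 2. The only added call was Taf6 without E21 replicate 1. Against the 2-fold threshold in edgeR's glmTreat, 1 member was higher at E21 and 0 at P11, 18 lost their call, and 3 of the other chromatin genes passed. Left-out libraries gave 15 to 16 members higher at E21, 4 higher at P11, 4 to 5 other chromatin genes and 3446 to 3600 of all genes past both thresholds. Members that did not pass and changed sign were Phf1, at 0.013 without E21 replicate 1 (range -0.074 to 0.013), and Hdac8 (range -0.13 to 0.049), at 0.033 without E21 replicate 1, 0.0070 without E21 replicate 3, 0.0029 without P11 replicate 2 and 0.049 without P11 replicate 4, where few reads limit the precision, and Hdac9, at -0.00088 with library size scaling. The shift of Hdac2 against Hdac8 was 0.79 without E21 replicate 3 (exact permutation test, adjusted p = 0.0667), with the stages still apart in this ratio. It was 0.75 to 0.93 over all libraries left out. The cause of these changes was not tested. Same-numbered libraries were not paired, with correlations of their deviations of -0.03 to 0.08, and 4 of 8 libraries best with their own number. A replicate block gave 3463 genes past both thresholds in place of 3462 and changed no call of a member.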
